A study of Drosophila melanogaster with 3 samples.

Results

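CG2712 peaks with their summit just upstream of a protein-coding gene that has no neighbouring gene start numbered 1730 in the deposited list of reproducible peaks, beside 8059 other peaks. This was 17.7% of that list (exact 95% interval 16.9 to 18.4). A member had its summit, the point of highest signal in the peak, 1 to 500 bp upstream of the nearest annotated transcript start. That start belonged to a protein-coding gene, and no start of another gene lay within 1000 bp of the summit, so each peak could be assigned to 1 gene. The rule used position only, not signal or sequence. The 1730 summits lay upstream of 1648 distinct starts of 1534 genes. Of the 8440 protein-coding genes that had room for such a summit under the rule, this was 18.2% (17.4 to 19.0), the share against which every group of genes below is read. The same rule applied to as many of the strongest peaks of each single replicate gave 1678, 1634 and 1779 members in replicates 1, 2 and 3, or 17.3% ± 0.759 of the peaks (SD, n = 3).

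The data are from chromatin immunoprecipitation with sequencing (ChIP-seq) of whole Drosophila melanogaster embryos aged 0 to 16 hours, males and females pooled. The flies were 1 transgenic line that stably carries CG2712 with green fluorescent protein (GFP) at its C terminus, and an anti-GFP antibody pulled down the fusion protein. There were 3 biological replicates in 1 group and no other condition, so all comparisons are between classes of peaks, repeated in each replicate. A peak is therefore an average over all tissues and ages of the collection, and it shows the tagged protein and not the untagged one. The labels do not give the promoter that drives the fusion gene. The sources used here give no read totals, so depth is unknown, and exact intervals cover counting error only.

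CG2712 encodes a protein with zinc fingers of the C2H2 type, a fold that often contacts DNA. The DNA just upstream of a transcript start is where many fly promoters carry short sequences bound by general promoter factors. The DNA replication-related element (DRE, TATCGATA) is bound by Dref, and its inner part is also the core of the site of the insulator protein BEAF-32. Motif 1, which holds GGTCACAC, is bound by M1BP. Both are known from promoters of genes used in most cells, such as those for ribosomal proteins. The TATA box is more typical of genes with restricted expression, and GAGA repeats are bound by the GAGA factor encoded by Trl.

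The sequences at the strongest members are shown because most were rich in A and T and held neither the DRE nor the Motif 1 word. Each is the stretch within 50 bp of the summit, cut before the start, on the strand of the gene and 5′ to 3′, from the RefSeq release of the dm6 assembly. These are the 8 strongest members that overlap no annotated exon and lie on an arm whose sequence is shown here. Capitals mark AAAAAATA or its reverse complement, a word that shared the lead in the ranking of 8-base words described further on.
CG2017 (chr3R:5862415-5862515, lower strand): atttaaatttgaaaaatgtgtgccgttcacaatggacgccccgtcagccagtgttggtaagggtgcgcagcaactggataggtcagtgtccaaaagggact
ATPsynB (chr3L:9729938-9729998, upper strand): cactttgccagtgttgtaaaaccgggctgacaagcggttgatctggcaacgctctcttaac
CG18549 (chr3R:12449118-12449218, upper strand): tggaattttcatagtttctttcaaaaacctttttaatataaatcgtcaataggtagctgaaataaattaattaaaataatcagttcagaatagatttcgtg
ph-p (chrX:2137270-2137370, lower strand): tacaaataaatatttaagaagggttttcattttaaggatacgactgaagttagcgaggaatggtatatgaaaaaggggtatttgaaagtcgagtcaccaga
CG14100 (chr3L:19590577-19590677, lower strand): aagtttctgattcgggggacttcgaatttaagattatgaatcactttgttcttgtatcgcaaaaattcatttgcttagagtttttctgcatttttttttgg
msi (chr3R:25515839-25515939, upper strand): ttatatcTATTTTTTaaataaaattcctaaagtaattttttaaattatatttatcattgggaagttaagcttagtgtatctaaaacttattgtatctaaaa
gish (chr3R:16280672-16280772, upper strand): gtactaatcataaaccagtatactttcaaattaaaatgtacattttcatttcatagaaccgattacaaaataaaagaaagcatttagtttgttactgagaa
C1GalTA (chr2L:8951312-8951412, lower strand): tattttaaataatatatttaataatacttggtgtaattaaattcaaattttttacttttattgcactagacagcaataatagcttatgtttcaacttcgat

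Members that held the DRE word were weaker and mostly lay close to the start. The 4 strongest of them that meet the same conditions are shown with TATCGATA in capitals, and were picked after their values were seen.
eEF1gamma (chr3R:29220071-29220171, upper strand): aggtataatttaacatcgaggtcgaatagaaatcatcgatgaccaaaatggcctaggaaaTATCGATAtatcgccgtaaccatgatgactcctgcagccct
RpL27 (chr3R:25685052-25685150, lower strand): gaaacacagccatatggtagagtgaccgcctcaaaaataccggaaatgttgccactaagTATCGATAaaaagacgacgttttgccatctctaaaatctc
HUWE1 (chrX:15712511-15712611, upper strand): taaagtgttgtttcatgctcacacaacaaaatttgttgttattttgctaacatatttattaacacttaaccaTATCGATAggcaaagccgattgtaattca
kibra (chr3R:14724326-14724426, lower strand): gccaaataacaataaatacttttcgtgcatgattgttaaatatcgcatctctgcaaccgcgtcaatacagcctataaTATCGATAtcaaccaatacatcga

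The 2 strongest with the Motif 1 word under those conditions follow, with GGTCACAC or its reverse complement in capitals.
beta-PheRS (chr3R:24252680-24252774, lower strand): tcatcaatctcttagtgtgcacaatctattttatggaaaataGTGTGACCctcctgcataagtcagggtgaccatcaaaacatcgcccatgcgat
Meltrin (chr3R:14697294-14697394, lower strand): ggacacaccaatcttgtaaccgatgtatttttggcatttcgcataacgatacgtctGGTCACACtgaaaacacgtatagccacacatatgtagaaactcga

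The upstream peak of CG2017 was the strongest of the whole list, with a deposited signal of 40613. Its signal was 16300, 10646 and 13683 in replicates 1, 2 and 3, and it ranked first in each. The signal is the caller's own enrichment value, and its scaling between lists is not recorded, so replicates are set side by side by rank. The next member was at ATPsynB, whose product belongs to the ATP synthase of mitochondria, with its summit 11 bp upstream of the start and a signal of 21679 (8107, 6043 and 7491 in the replicates). CG30392 followed (14365; 5775, 3773 and 4829), then px, a gene of wing vein patterning (10546; 2524, 4731 and 3327), and CG18549 (8016; 1924, 3697 and 2415). All of these held ranks from 1 to 22 in every replicate.

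The 25 strongest members held 15.7% of the summed signal of the members and 9 of them were among the 25 strongest peaks of the whole list. Their signals ran from 4597 to 40613. Beside those already named they included Fkbp14, a peptidyl-prolyl isomerase (signal 7946), the Polycomb group gene ph-p (7735), msi, which encodes the RNA-binding protein Musashi (6721), and gish, a casein kinase (6007). C1GalTA, a galactosyltransferase, had 5840, RluA-1, a pseudouridine synthase gene, 5831, the ABC transporter gene E23 5256, and aay, a phosphoserine phosphatase gene, 5096. The cGMP-dependent kinase gene for had 5004, the RNA-binding protein gene larp 4847, the Rap1 regulator RapGAP1 4696 and scb, an integrin subunit gene, 4597. The remaining 8 were CG14100, CG1888, Tina-1, CG13921, MFS18, CG1635, osp and CG31145. The lowest rank that any of the 25 took was 98 in replicate 1, for osp, and 75 in replicate 2, for scb. Their summits lay 11 to 465 bp upstream, with a median of 170 bp, and 4 of the 25 lay within 100 bp of the start. GC content within 50 bp of the summit averaged 28.0% (16.8 to 48.5) and was below 30% in 15 of the 25. The DRE and the Motif 1 word were there in 0 of the 25. A limit of 3 in 25 would be 12% for each, but the 25 were picked by signal and are not a sample.

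**Figure D1:**
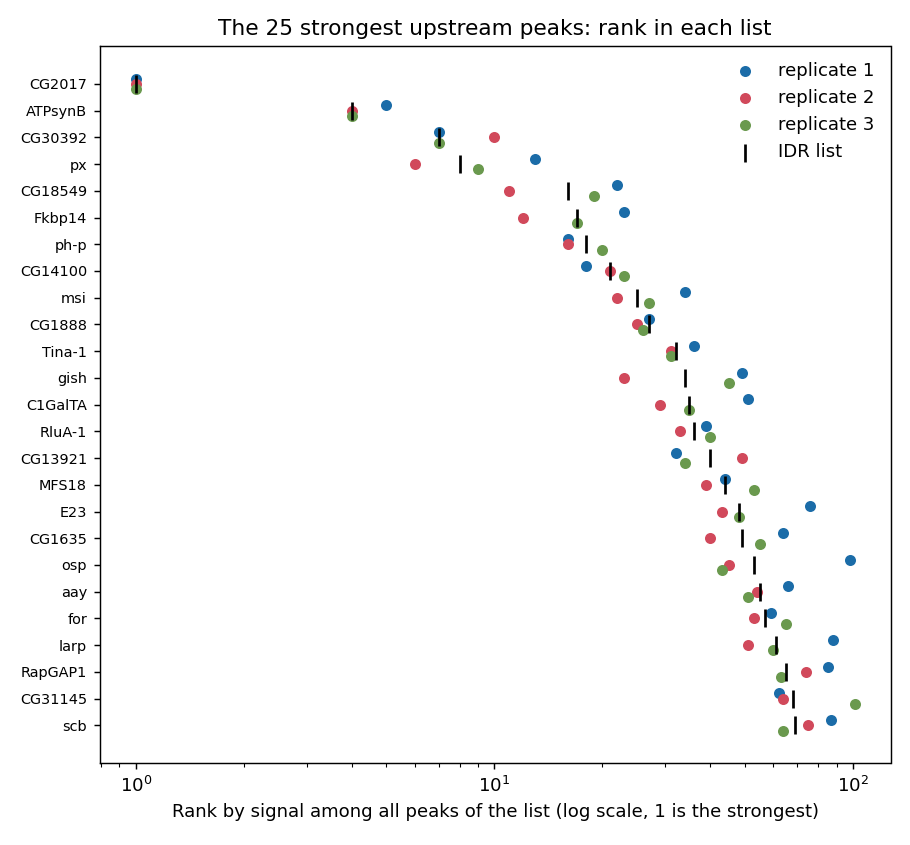
Rank by deposited signal (log scale, 1 is the strongest) of the 25 strongest upstream peaks, 1 line per gene, in replicates 1, 2 and 3 (blue, red and green dots) and in the reproducible list (black bars). CG2017 has rank 1 in all 3 replicates, and CG31145 has the lowest rank of the 25 in replicate 3.

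Over all members the deposited signal ran from 206 to 40613 with a median of 413, against 411 for the whole list. Members supplied 9 of the 25, 30 of the 100 and 238 of the 1000 strongest peaks. Their intervals had a median width of 410 bp (106 to 1344), against 361 bp for the whole list. A peak was present in all 3 replicate lists for 1564 of the 1730 members (90.4%, against 92.7% of the whole list). Over these 1564, Spearman's rho of the signal between replicates was 0.822, 0.820 and 0.852, a description over peaks that share 3 libraries. Among the strongest peaks of all 3 replicates, as many from each as the list holds, were 1216 members (70.3%, against 70.7% of the whole list), a share near that of the list.

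Summits were densest within 100 bp of the start and thinned beyond it. The median distance was 148 bp (quartiles 69.2 and 269), and it was 156, 159 and 141 bp in the replicate lists (mean 152 ± 9.64 bp, SD, n = 3). Counted per 1000 bases at which a summit would have met the rule, there were 0.580 summits from 1 to 50 bp and again 0.580 from 51 to 100 bp. Beyond 100 and up to 150 bp there were 0.493, from 201 to 250 bp 0.346, from 301 to 350 bp 0.247 and from 451 to 500 bp 0.142. The replicate means were 0.518 ± 0.0963 from 1 to 50 bp, 0.574 ± 0.0598 from 51 to 100 bp and 0.135 ± 0.0150 in the last bin. In the bin next to the start the values were 0.434, 0.496 and 0.623 in replicates 1, 2 and 3, against 0.593, 0.506 and 0.621 in the next one, lower next to the start in replicates 1 and 2. In the other bins the replicates lay closer together. Median signal had another course, at 321 from 1 to 50 bp, 605 from 201 to 250 bp and 463 from 451 to 500 bp.

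**Figure D2:**
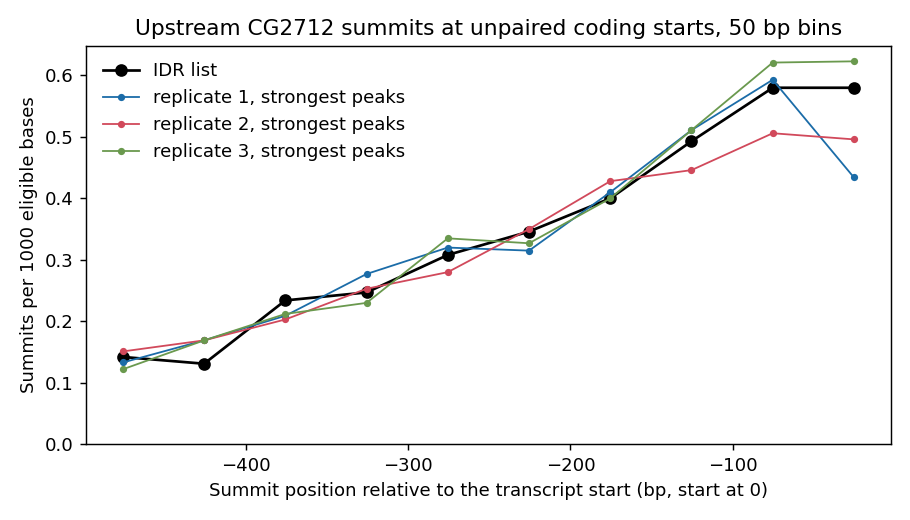
Upstream summits per 1000 eligible bases (vertical axis) in bins of 50 bp by position relative to the transcript start (horizontal axis, start at 0), for the reproducible list (black) and as many of the strongest peaks of each replicate (colours). The reproducible list has 0.580 in the 2 bins nearest the start and 0.142 in the last, and the replicates differ most in the bin next to the start.

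Summits downstream of the start were fewer. Of the peaks within 500 bp of an unpaired coding start, 82.2% were upstream, 1730 against 375 at or downstream of the start. The replicate shares were 86.6, 78.4 and 78.6% (mean 81.2% ± 4.66, SD, n = 3), highest in replicate 1. Of the member summits, 1081 (62.5%) lay outside any gene, 409 (23.6%) in an intron of the same gene, 119 (6.88%) in an intron of another gene and 121 (6.99%) in an exon. The start was the outermost of its gene for 1215 members and an inner, alternative start for 515. The peak interval reached over the start in 1004 cases (58.0%).

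Set against other classes of peaks, the upstream peaks had a higher signal than downstream peaks and a lower one than divergent pairs in every replicate, in a design too small for the test to pass. Median log2 signal of the upstream peaks was 6.87, 7.48 and 7.25 in replicates 1, 2 and 3, against 6.12, 7.17 and 7.07 at the 375 downstream peaks, a mean difference of 0.42 ± 0.30 (SD, n = 3) with the upstream peaks higher in 3 of 3. Against the 1442 peaks between the starts of divergent coding pairs, which had 7.26, 7.64 and 7.48, the difference was -0.26 ± 0.11 with the upstream peaks lower in 3 of 3. Against all other peaks of the list (6.77, 7.54 and 7.21) it was 0.03 ± 0.08, higher in 2 of 3. The exact two-sided sign-flip permutation test over replicates gave p = 0.25, 0.25 and 0.750. With 3 replicates this test cannot go below 0.25, so it cannot pass a threshold of 0.05 here or in any comparison below. The difference to divergent pairs was 0.05 in the stronger part of the list, and that to all other peaks was -0.01 without replicate 1 and -0.08 with summits up to 250 bp upstream. Peaks missing from a replicate list were given a value below all others there, so they counted at the low end of the median. In replicate 1 these were 97 of the 1730 upstream and 47 of the 375 downstream peaks. Their part in the difference was not tested.

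**Figure D3:**
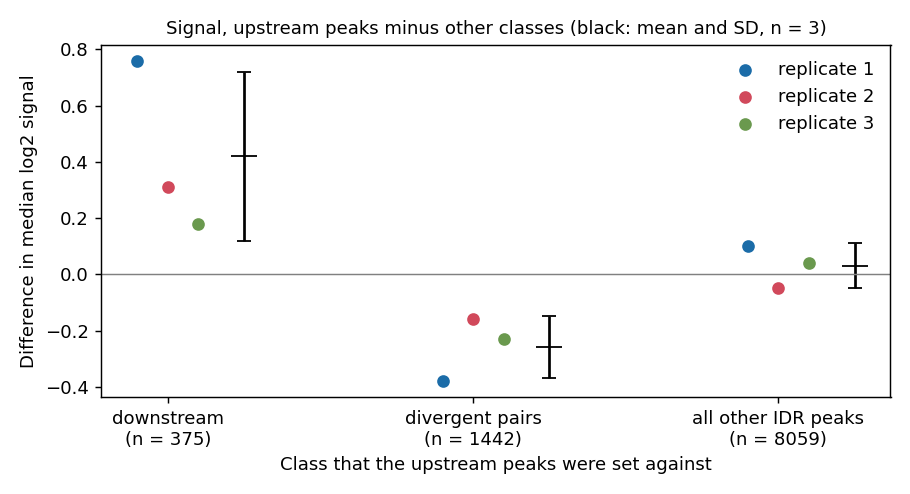
Median log2 signal of the upstream peaks minus that of 3 other classes (vertical axis), in each replicate (coloured dots), with the mean and SD of the 3 replicates in black. The differences are above 0 in all 3 replicates against downstream peaks, below 0 in all 3 against divergent pairs and on both sides of 0 against all other peaks.

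Mean recovery in single replicates was again between that of the downstream class and that of divergent pairs. The share of upstream peaks that overlapped one of the strongest peaks of a replicate was 83.5, 87.3 and 90.6% (mean 87.2% ± 3.56, SD, n = 3). It was 64.5, 85.1 and 90.7% for downstream peaks (mean 80.1% ± 13.8) and 91.2, 89.5 and 92.9% for divergent pairs (mean 91.2% ± 1.70). The low value of the downstream class came from replicate 1. For all other peaks it was 86.3, 90.1 and 85.8% (mean 87.4% ± 2.38), a difference of -0.209 ± 4.40 points. The exact sign-flip p was 0.5 against the downstream class, 0.25 against divergent pairs and 1.00 against all other peaks. The list was made from these replicates, so recovery is a description.

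Taken over all distances, the DNA under the upstream summits was poorer in G and C than DNA 300 bp farther from the start. GC content within 50 bp of the summit averaged 33.7, 35.5 and 36% in the replicate lists (mean 35.0% ± 1.22, SD, n = 3), against 38.2% ± 0.187 in windows of the same length 300 bp farther from the start. The difference was -3.17 ± 1.26 percentage points (exact sign-flip p = 0.25, lower in 3 of 3). Downstream peaks had 40.3% ± 1.76, a difference of -5.30 ± 0.598 (p = 0.25 by the same exact test, lower in 3 of 3). Divergent pairs had 32.1% ± 0.603 and all other peaks 32.6% ± 1.12, and the upstream peaks were above both in 3 of 3 replicates. The low GC content was found away from the start. Members 1 to 100 bp upstream had 42.2%, against 43.2% in 10816 windows centred 50 bp upstream of all eligible starts. Members beyond 100 and up to 200 bp upstream had 32.3% against 39.1%, those 201 to 300 bp upstream 29.7% against 38.0%, and those 301 to 500 bp upstream 30.7% against 38.5% in windows at like distances.

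The DRE and Motif 1 words were the known sequences with the widest gap to the flanks in proportion. Within 50 bp of the summit, TATCGATA lay in 82 of 1730 members (4.74%, exact 95% interval 3.79 to 5.85), against 8 flank windows (0.462%). GGTCACAC lay in 60 members (3.47%, 2.66 to 4.44), against 3 flank windows (0.173%). Over replicate lists the shares were 4.60% ± 0.513 against 0.586% ± 0.131 for TATCGATA and 3.31% ± 0.277 against 0.238% ± 0.123 for GGTCACAC (SD, n = 3, exact sign-flip p = 0.25 each, higher in 3 of 3). The 5-base core CGATA, which every TATCGATA also contains, lay in 25.8% of members against 12.4% of flanks. All words were matched exactly on both strands. In other classes TATCGATA lay in 6.13% of downstream peaks, 6.31% of divergent pairs and 0.897% of the remaining peaks. In the same order GGTCACAC lay in 4.53, 3.26 and 0.689%, and CGATA in 20.3, 27.9 and 11.6%.

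Both words were found mostly at the members nearest the start. Of the members with TATCGATA, 72 of 82 (87.8%) had the summit within 100 bp of the start, against 36.2% of all members, and the word itself lay a median 46.0 bp upstream of the start (quartiles 22.8 and 67.2) and 20 bp from the summit. Among the 627 members 1 to 100 bp upstream, 11.5% held TATCGATA (9.09 to 14.2; replicate mean 11.2% ± 1.99), against 2.95% of the windows centred 50 bp upstream of all eligible starts. GGTCACAC was in 8.45% of these members (6.40 to 10.9; replicate mean 8.34% ± 0.752) against 1.36% of the windows. Beyond 100 and up to 200 bp the shares were 1.33% against 0.555% for TATCGATA and 1.11% against 0.258% for GGTCACAC. Of the 60 members with the Motif 1 word, 42 had it on the strand of the gene.

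The strongest members with each word are given here with their genes. The strongest members with TATCGATA were at CG1827 (signal 1561), eEF1gamma, a translation elongation factor (1445), the ribosomal protein gene RpL27 (912), Hs3st-A (731), the ubiquitin ligase gene HUWE1 (713) and kibra, a gene of the Hippo growth pathway (668). The signal at eEF1gamma was 333, 646 and 466 in replicates 1, 2 and 3, at RpL27 207, 359 and 358, and at kibra 180, 231 and 274. Their ranks in the reproducible list were 835, 1742 and 2643, far below the strongest members. The strongest with GGTCACAC were at beta-PheRS, a phenylalanyl-tRNA synthetase subunit (1408; 499, 461 and 464 in the replicates), CG8060 (992) and Meltrin (645). CG43066 held both words at a single summit 497 bp upstream of the nearest start (628).

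Other known sequences had smaller differences from the flanks in proportion. GAGAG, the GAGA factor word, lay in 10.9% of members against 13.7% of flanks and 17.5% of windows 150 bp upstream of eligible starts. CCCTC was in 4.68% against 7.69% of flanks, GCCAT, the core of the Pho site, in 15.1% against 14.4%, and CACGTG in 0.925% of both. CAGGTAG, the site of the early activator Zelda, was in 6 members and 12 flanks. TATAAA was in 20.9% against 16.3%, CAGCTG in 5.55% against 4.05%, AGATGGC in 1.85% against 0.867% and TTCGAAAG in 0.520% against 0.347%.

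The members were also set side by side by signal. Split by signal into 4 parts of equal size, the strongest (749 to 40613) had a mean GC content of 29.1% and the weakest (206 to 290) 38.6%, with 35.1 and 37.5% between. The median distance was 215, 140, 103 and 106 bp from the strongest part to the weakest. TATCGATA was in 3, 23, 30 and 26 members of these parts, which is 0.693, 5.32, 6.93 and 6.02%, and GGTCACAC in 2, 13, 25 and 20. In the replicate lists the strongest part minus the weakest was -8.22 ± 2.44 percentage points for GC content, 81.0 ± 15.5 bp for the median distance, -4.68 ± 1.89 points for TATCGATA and -3.68 ± 2.23 points for GGTCACAC (SD, n = 3). It was -7.56 ± 4.29 points for GAGAG, which had no excess over flanks, and 2.20 ± 0.891 points for AAAAAATA. Each had 1 direction in 3 of 3 replicates, with an exact sign-flip p of 0.25. The share within 100 bp of the start was 11.5% in the strongest part and 48.4% in the weakest.

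**Figure D4:**
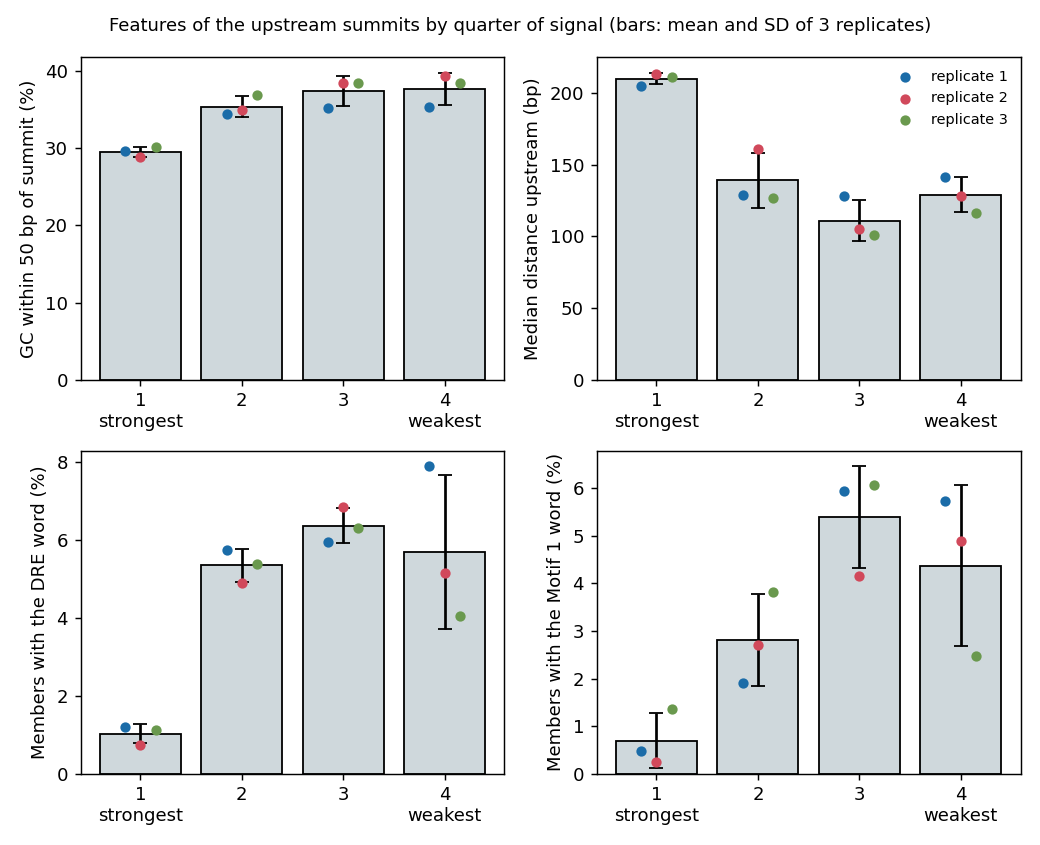
GC content within 50 bp of the summit, median distance upstream, and the shares of members with the DRE word and with the Motif 1 word, by part of the members ranked by signal (1 strongest, 4 weakest). Bars and whiskers are the mean and SD of the 3 replicate lists and dots the replicates. The strongest part has the lowest GC content and word shares and the greatest distance in each replicate.

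The scarcity of the DRE word in the strongest part was also seen near the start, where distances were limited to a band but not matched within it. Among members 1 to 100 bp upstream, 2 of 50 in the strongest part held TATCGATA (4%, exact 95% interval 0.488 to 13.7), against 70 of 577 in the other 3 parts (12.1%, 9.58 to 15.1). In the replicate lists this was 4.91% ± 0.699 against 11.8% ± 2.21, a difference of -6.91 ± 2.29 points (SD, n = 3, exact sign-flip p = 0.25, lower in 3 of 3). The counts in the strongest part were 3, 2 and 3 in replicates 1, 2 and 3, so the share rests on few peaks. GC content at this distance was 37.1% ± 2.16 against 42.3% ± 1.29. Other classes were compared over all distances only, as the strongest minus the weakest part. Divergent pairs had -8.46 ± 0.762 points for GC content and -4.98 ± 1.03 for TATCGATA, like the -8.22 ± 2.44 and -4.68 ± 1.89 of the members. In the downstream class TATCGATA had a difference of 1.33 ± 1.25 points. The gap between upstream and downstream classes, also over all distances, was -6.01 ± 1.98 points (exact sign-flip p = 0.25).

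With no sequence set in advance, runs of A and T led the ranking made on 2 of the arms. The 8-base words most in excess over flanks at the 691 members on 2L and 3L were AAAAAATA, TATTTAAA, AAAAATAT, AATAAAAT and AATTTAAA. AAAAAATA (58 members against 26 flanks) and TATTTAAA (48 against 16) had an equal excess there and shared the lead. On the 715 members of 3R, X and 4, AAAAAATA was in 48 members against 30 flanks (6.71% against 4.20%), and TATTTAAA in 30 against 27. Listed sixth was ATCGATAG, part of the extended DRE, in 28 members against 0 flanks on 2L and 3L. Its excess there equalled that of AATAAAAT (50 against 22) and AATTTAAA (46 against 18), so the order among these words is arbitrary. On 3R, X and 4, ATCGATAG was in 44 members against 3 flanks (6.15% against 0.420%), a wider gap than that of any of the 5 words listed before it. In all replicate lists it was in 5.12% ± 0.810 of members against 0.460% ± 0.201 of flanks (SD, n = 3).

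Sequences at the starts themselves were counted as well. TATAAA from 45 to 20 bp upstream of the start was found at 50 of 1648 member starts (3.03%), against 7.90% of 10090 eligible starts. The replicate lists gave 3.02% ± 0.0918 (SD, n = 3). The initiator word TCAGT from 3 bp upstream to 5 bp downstream was at 10% of member starts against 10.3%, and any of 3 downstream promoter words 20 to 40 bp downstream at 9.71% against 7.45%. The 374 starts with a downstream peak had 2.14% for TATAAA, 11.0% for TCAGT and 10.7% for the downstream words. Starts of the strongest part had TCAGT in 14.7%, against 9.56% in the weakest part. These windows lie at the start and not at the summit, and the comparison carries no test.

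Gene groups were read against the 18.2% of eligible genes that had an upstream peak. A gene with several starts can have more bases open to a summit, and the shares were not adjusted for this. The lists are selections of genes and not complete, so the gene that leads one is the strongest of that list only. Counts in the strongest part of the members are to be set beside its 433 of the 1730 members. Of 25 lists, 19 had a larger share. None of them was tested, and the exact intervals of the shares are wide because most genes of several lists have a neighbouring start and are not eligible. Cytosolic ribosomal protein genes had an upstream peak at 15 of 26 (57.7%, exact 95% interval 36.9 to 76.6; replicate mean 56.4% ± 8.01, SD, n = 3). The strongest was at RpS3 (signal 1807), whose replicate signals of 711, 498 and 608 gave ranks of 239, 1262 and 523. RpL23A had 1618 (489, 635 and 518) and RpL27 912. Translation factors had 9 of 27 (33.3%, replicate mean 33.3% ± 6.42; 2 of 14 or 14.3% with no other start within 2000 bp, against 18.3% of all genes), led by eEF1gamma (1445), eIF2D (775) and eEF2 (702), and mitochondrial ribosomal proteins 5 of 14 (35.7%, replicate mean 23.8% ± 10.9), led by mRpL19 (672). Proteasome subunits had 7 of 23, led by Rpn10 (437), Rpn12 (368) and Prosalpha5 (332), none of them in the strongest part of the members. Respiratory chain and ATP synthase genes had 9 of 39 (23.1%), where ATPsynB (21679) stood far above UQCR-14 (516) and ATPsynO (490).

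Genes of transcription, chromatin and trafficking gave shares from near the background to above it. Polycomb and trithorax group genes, which keep developmental genes silent or active, had 7 of 14 (50%, 23.0 to 77.0; replicate mean 50% ± 14.3). After ph-p came kis, a chromatin remodeller (592), and ph-d, the neighbour and duplicate of ph-p (477). The list of Mediator, TFIID and RNA polymerase subunits had 7 of 22 (31.8%), led by Taf4 (975), but 1 of 11 (9.09%) with the limit of 2000 bp. The member at Cdk8 (603) was not in this list. Insulator protein genes had 2 of 7, mod(mdg4) (253) and pita (239), both weak, and 0 of 2 with the limit of 2000 bp. Zinc finger relatives had 4 of 19 (21.1%), led by bowl (2222), and 2 of 14 (14.3%) with that limit. Rab, Vps and syntaxin genes of membrane traffic had 7 of 30 (23.3%), led by Rab5 (1758), and vacuolar proton pump genes 3 of 20 (15%), led by Vha16-1 (787). The aminoacyl-tRNA synthetase list had 2 of 9, and beta-PheRS (1408), named above, was not in it.

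Signalling and developmental genes had upstream peaks as well. Notch pathway genes had 5 of 8 (62.5%, 24.5 to 91.5; replicate mean 70.8% ± 19.1), and the strongest were numb, an inhibitor of Notch (2863; 636, 1397 and 853 in the replicates), neur, a ubiquitin ligase for Notch ligands (1653), and the receptor gene N (517). The ligand gene Dl could not be matched by its symbol and is not among the 8. Hedgehog and Wingless genes had 7 of 18 (38.9%, replicate mean 37.0% ± 3.21), led by sgg, the fly GSK3 kinase (2516), nkd, an antagonist of Wingless (2183), and the Hedgehog receptor gene ptc (406). The dorsoventral patterning list had 5 of 18 (27.8%), led by tin (2728), a regulator of heart development whose replicate signals were 579, 1230 and 923. The member at cact (2060) was not in this list. The maternal, gap and pair-rule list had 3 of 19 (15.8%, replicate mean 22.8% ± 15.2), of which bcd, the maternal anterior determinant, was the strongest (873). In the Hox list the 1 gene of 9 (11.1%, replicate mean 29.6% ± 23.1) was hth (225), a partner of Hox proteins and not a Hox gene.

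The replication and cell cycle list had 7 of 17 (41.2%, replicate mean 39.2% ± 3.40), led by the mitotic kinase gene polo (408), CycB3 (330) and E2f1 (327). None of its 7 peaks, a small number, was in the strongest part. The stronger members at BubR1 (615), PolA1 (492), Cdc27 (492) and dap (482) were not in this list. Muscle genes had 4 of 19 (21.1%), and 3 of these 4 had a summit in the strongest part: Msp300 (1845), sls (1405) and Tm1 (1092). The 7 peaks of the 4 genes had a median signal of 294, against 413 over all members. Heat shock and chaperone genes had 3 of 10, led by Hsp27 (3639; 915, 1612 and 1124 in the replicates). The ecdysone response list had 6 of 15 (40%, replicate mean 26.7% ± 11.5), led by EcR (414). The stronger members at E23 (5256), Sox14 (4289) and Eip63F-1 (610) were not in this list. Germ plasm and maternal RNA genes had 3 of 8, namely the translational repressors smg (705) and pum (625) and the early activator zld (314). Neuronal genes had 3 of 18 (16.7%). Chemosensory receptors had 1 of 143 (0.699%, 0.0177 to 3.83), Ir67c (238), whose peak was listed in replicate 1 only. Cpr cuticle protein genes had 2 of 62 (3.23%, 0.393 to 11.2), Cpr67Fa1 (330) and Cpr65Ea (283).

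**Figure D5:**
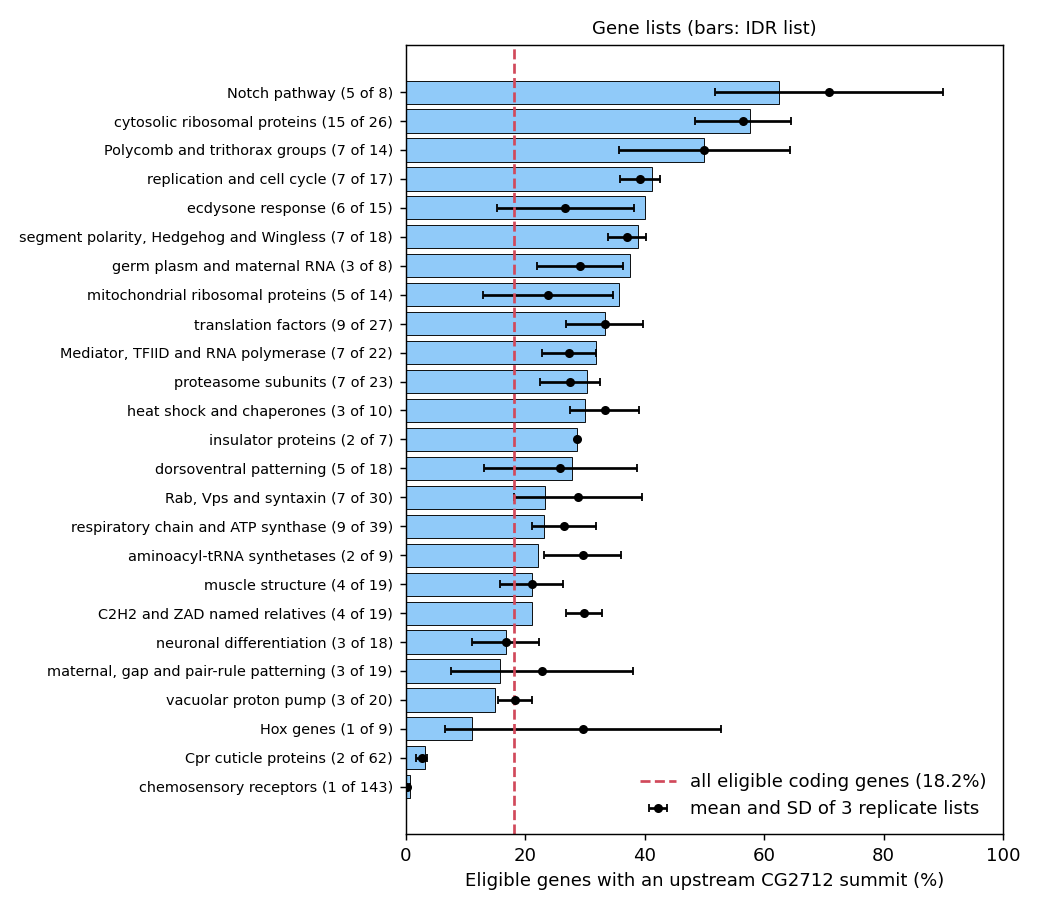
Share of the eligible genes of 25 lists that have an upstream CG2712 summit (horizontal axis), with bars for the reproducible list and black dots with whiskers for the mean and SD of the 3 replicate lists. The dashed line is the share over all eligible coding genes (18.2%), and the number of genes with a summit and of eligible genes stands beside each name. Notch pathway and cytosolic ribosomal protein genes are at the top and chemosensory receptors, with 1 of 143, at the bottom.

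Joined into 2 groups, some lists of general cell maintenance and of development had different median distances. The 6 lists of ribosomal, proteasome, respiratory, translation and synthetase genes gave 47 of 138 eligible genes (34.1%, replicate mean 33.6% ± 2.54), and 8 lists of patterning, signalling, neuronal, muscle and hormone genes gave 33 of 123 (26.8%, 27.9% ± 6.62). The 49 peaks of the maintenance group lay a median 70.0 bp upstream and 8 held TATCGATA. The synthetase gene beta-PheRS was not in these lists and is not among the 49. The 40 peaks of the developmental group lay a median 202 bp upstream and 1 held it. Over the replicate lists the medians were 74.0 ± 6.08 and 190 ± 9.81 bp (SD, n = 3). GC content was 38.1% in the maintenance group (38.0% ± 1.10 over the replicate lists) and 41.0% in the developmental group (40.6% ± 3.62), so the group farther from the start was not the poorer in G and C here. In the strongest part of the members were 7 of the 49 and 10 of the 40. The groups were joined after the data were seen and carry no test. The lists of the proton pump, of membrane traffic and of Mediator, TFIID and RNA polymerase were in neither group.

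Most genes had a single upstream summit, and 160 had more. Of the 1534 genes, 1374 had 1, 136 had 2, 15 had 3 and 9 had 4 to 6. Rtnl1, a reticulon gene that shapes the endoplasmic reticulum and has many alternative starts, had 6, at signals of 4507, 1784, 1509, 1248, 652 and 497 and 48 to 346 bp upstream of the nearest start. RapGAP1 had 3 (4696, 2197 and 490), CG1888 3 (6670, 802 and 212), msi 2 (6721 and 276) and larp 2 (4847 and 807). Summits of the same gene can share an interval, as the second CG1888 summit did with the first, and are then matched to the same replicate peak.

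All chromosome arms but the Y held members. There were 330 on 2L, 324 on 2R, 361 on 3L, 377 on 3R, 322 on X and 16 on 4. Per 1000 eligible bases this was 0.378, 0.338, 0.379, 0.330, 0.374 and 0.403 in the same order, and the replicate means ran from 0.325 ± 0.0202 on 2R to 0.370 ± 0.0218 on 2L (SD, n = 3). The Y had 0 of 1730 members, which allows a share of up to 0.173%, and 0.227% of the eligible bases.

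The peaks nearest the limits of the rule are given on both sides. Just inside 500 bp were prage at 499 bp (signal 1979), CG43066 at 497 bp (628) and CG10713 at 497 bp (282), and just outside stv at 501 bp (308), Nost at 502 bp (559) and Dfd at 502 bp (422). At the start itself scyl (609), Su(z)2 (296) and PGAP5 (271) had summits 1 bp upstream, and ND-B22 (359), LanA (265) and Der-1 (247) had theirs on the first base. Nearest to the limit for another start were Pop5 with one at 1001 bp (211), CG4045 at 1005 bp (275) and RIC-3 at 1008 bp (853), and just beyond it CG34396 at 997 bp (275), Rab1 at 995 bp (366) and Bacc at 993 bp (1187).

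The weakest members were at Ufd4 (207), the translation release factor gene eRF3 (207) and Debcl (206). The one at Ufd4 is a second summit that overlaps a stronger peak of the same gene (1055) and was matched to the same replicate peaks. Among members with a peak in all 3 replicate lists, the widest spread of ranks was at gw, with ranks of 3233, 8512 and 29456 in replicates 1, 2 and 3, and CAP, with 1050, 1568 and 25316, both low in replicate 3. The next, loco (27083, 6127 and 4085), nac (28680, 5964 and 9339) and CG17349 (28426, 9836 and 6041), were low in replicate 1.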

How the data were processed

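Anti-GFP ChIP-seq peak lists of 3 biological replicates, the list called on all of them and the IDR (irreproducible discovery rate) list were used. Per the text deposited with the samples, a single control file served for every call, peaks were called per replicate and then on the 3 replicates joined, and the IDR list was derived from both, on build dm6. The caller, aligner and IDR threshold are not given in the sources used here. Peaks were ranked by the authors' signal value. The deposited −log10 q values reach a single highest value in each list and were not used. The IDR list equals the 9789 strongest peaks of the pooled list. No interval was identical between replicates.

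Summits were classed by the starts of Ensembl release 115 (18277 genes without transposable elements, 24111 transcript starts), with sequence from RefSeq for the same assembly. Per replicate, the 9789 strongest peaks were classed in the same way. A member's replicate signal is that of the strongest overlapping peak (1 bp), and a missing peak counts below all others in a median. Eligible genes and bases are those where a summit would meet the rule. The downstream promoter words were CGGTT, with GGTTC taken as equal to it, and the word CGTGC. Flank windows lie 300 bp farther from the start. The test is the exact two-sided sign-flip permutation test over 3 replicates, with intervals by Clopper-Pearson. The classification and word search were tested on simulated data. Software was SciPy 1.17.1, pandas 2.3.3 and NumPy 2.4.6 in Python 3.11.15, with figures by matplotlib 3.10.9.

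The members, gene lists and known sequences were chosen with earlier results of these data known. Also chosen after seeing the data were the comparison of words by signal part, the windows at 50, 150, 250 and 400 bp, the 2 joined groups of lists and the members shown with a word. Words in the strongest members were looked at while these were chosen. Named are the 25 strongest members, up to 3 of each list, the 5 strongest genes with several summits, those at the edges of the rule, the weakest and those with the widest rank spread. Of the list symbols, 6 matched no single gene and were left out: calypso, hairy, Dl, Aph-1, lat and pan-gu. Alternatives were leaving out each replicate, the stronger part of the list, 1 summit per interval, limits of 2000 bp and 250 bp, peaks shared by all replicates, other windows and a 50% overlap.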

Additional observations from a re-analysis of the deposited data

Results flagged for a closer look

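The list called on the replicates together goes on below the peaks analysed, and this part was not used in any comparison. Of its 20211 peaks, 1653 summits (8.18%) met the same position rule, against 17.7% of the list analysed; a count of 0 would have allowed 0.0148%. Their signals ran from 44.7 to 206, and they lay upstream of 979 genes that had no member. What they stand for was not tested.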

How the results depend on the processing

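Of the results recomputed under the alternatives, 76 values kept their direction or stayed within 1 SD of the replicates (counts of lists within 1.5 times), 21 moved further and 3 turned in sign. The signal difference to all other peaks, 0.03, was -0.01 to 0.10 when a replicate was left out, below 0 without replicate 1, and -0.08 with summits up to 250 bp, so it has no stable direction. The difference to divergent pairs turned to 0.05 in the stronger part of the list. Without 1 replicate the share of peaks was 16.8 to 18.0%, the median distance 157 to 168 bp and the share of genes 13.5 to 14.7%. In the stronger part the median distance was 181 bp, recovery 98.2% and the share of genes 9.40%. With no other start within 2000 bp the share of peaks was 12.4% and the distance 165 bp. With summits up to 250 bp the share of peaks was 12.7%, the distance 99.0 bp and the share of genes 14.2%. In peaks shared by the strongest of all 3 replicates the distance was 166 bp and the share of genes 12.8%, and recovery has no value there, being complete by construction. Most of these settings shrink the list or the window. Recovery was 70.0% when 50% of both peaks had to overlap. AAAAAATA was in 3.36% of members within 25 bp and 14.7% within 100 bp of the summit, windows of other lengths. TATCGATA was in 3.11% of members in the stronger part, 3.79% with 2000 bp and 6.35% up to 250 bp, and its strongest minus weakest difference ran from -3.67 to -6.38 points. Of the 25 gene lists, 15 to 21 stood above the share of all eligible genes; translation factors, Mediator, TFIID and RNA polymerase, insulator proteins and zinc finger relatives were below it with 2000 bp, and proteasome, respiratory, synthetase, insulator, replication and ecdysone genes in the stronger part. No paired analysis was possible between groups because there is only 1; differences between classes of peaks were taken within each replicate.

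Depth is unknown, and 3 replicates of 1 line allow no p below 0.25. A list shows where a peak was listed, not where the protein was absent. The lists of genes are small after the rule on neighbouring starts. Signal could not be compared in size between replicates, and distance, GC content and the promoter words vary together, so their parts in the signal cannot be told apart.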

Other observations

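The printed windows of CG2017 and ATPsynB, the 2 strongest upstream peaks, share the 10-base word GCCAGTGTTG, noticed after the sequences were seen. It lay within 50 bp of the summit of 18 peaks of the whole list (0.184%), and 3 of these were among the 25 strongest of the list, at ranks 1, 4 and 15. The third is at Vha44, a proton pump subunit gene with a divergent neighbour (signal 8128). The next peak with the word had rank 2616, at Cmpk (674). Of the upstream peaks, 9 held it (0.520%, exact 95% interval 0.238 to 0.985; replicate mean 0.451% ± 0.0846, SD, n = 3), against 0.176% of windows centred 50 bp and 0.0198% of those centred 150 bp upstream of eligible starts. The others were at lute (577), CG17746 (461), Drp1 (422), which encodes a mitochondrial fission protein, alphaSnap (289), the Polycomb-associated gene RYBP (237) and Trf4-1 (207), all within 100 bp of the start. The word was chosen for its presence in the strongest peaks, so these counts carry no test.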
